A study of Mus musculus with 40 samples.

Results

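The genes examined here encode proteins of the cytosolic ribosome. They were chosen by gene symbol from the array's annotation: Rpl or Rps followed by a digit, or Rplp, without the Rps6k kinase genes and without pseudogenes. The rule took 82 probes of 65 genes, out of 25697 probes and 16593 named genes on the array. Of these, 68 probes of 57 genes were detected on at least 4 of the 40 arrays, with a detection score of 0.99 or more, and were tested. The remaining 14 probes were not tested: 13 were detected on no array and the Rpl22l1 probe on 1. For Rpl6, Rpl14, Rpl17, Rps23, Rplp2, Rpl39l, Rps23rg1 and Rpl22l1 no probe was tested, so these 8 genes have no value below. The tested set holds 41 probes of 34 genes of the large subunit, 26 probes of 22 genes of the small subunit, and Rps19bp1. Rps19bp1 and Rps23rg1 carry a matching symbol but are not ribosomal proteins: Rps19bp1 is known as a regulator of the deacetylase SIRT1.

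A cytosolic ribosome has a small subunit, which binds messenger RNA and reads its codons, and a large subunit, which joins amino acids into protein. Rps genes encode proteins of the small subunit and Rpl genes those of the large one, while the Rplp proteins form the stalk that recruits translation factors. Because each ribosome carries about 1 copy of each protein, their messenger RNAs are among the most abundant of the cell and are made in step. Most begin with a run of C and T bases, the terminal oligopyrimidine tract, through which the kinase mTOR and the RNA-binding protein Larp1 set how much of the mRNA is translated. In neurons ribosomes also work in dendrites, where local protein synthesis serves lasting synaptic change.

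RNA from the hippocampus of 40 mice aged 12 months was hybridised to Illumina Ref-8 mouse chips, 1 animal to an array. The design sets inbred strains against each other and then relates expression to amyloid-beta in transgenic mice. Of the 28 mice with an APP transgene (Tg), 7 were DBA-rich (75% DBA, 16% B6, 9% SJL), 3 were 50% DBA (with 42% SJL and 8% B6), 6 were B6-rich (62.5% B6, 37.5% SJL), 6 SJL-rich (69% SJL, 31% B6) and 6 SJL-richest (84% SJL, 16% B6). The percentages are those the labels state for a mouse's background, not measured genotypes, and the last 3 groups carried 0% DBA. The other 12 mice carried no transgene and were inbred DBA (dba2 in the labels), SJL and B6, 4 of each. Which promoter drives the transgene is not stated in the labels. Each Tg mouse has a log10 level of Abeta40 in the guanidine fraction, the poorly soluble pool.

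A few facts of the whole data set bear on every value below. Arrays 1 to 16 and arrays 17 to 40, by running number, stand apart. The earlier ones hold the 50% DBA, B6-rich and SJL-richest mice with 1 DBA-rich mouse, and the later ones all others. Comparisons were therefore made within an array set unless stated. The 2 deposited tables assign the same mouse to each of the 28 Tg arrays but differ for 8 arrays of inbred mice out of 12, and for 6 of them the strain differs. The 6 inbred arrays whose strain is the same in both, 2 per strain, are called the agreed arrays here. Calls between inbred strains are given for all 12 and for these 6. The agreed arrays are numbers 31 and 32 for DBA, 35 and 36 for B6, and 39 and 40 for SJL. With them, a DBA difference cannot be told apart from one between arrays 31 and 32 and arrays 35 to 40. Array 40, 1 of the 2 agreed SJL arrays, is flagged below as far from its mates. Between 41.5% and 50.0% of probes were detected per array. The share was 41.5% to 44.1% on arrays 33 to 40, which hold all inbred SJL mice, and 46.4% to 50.0% on arrays 17 to 32. Of 8 markers of hippocampal neurons on the array 7 were measured, with mean log2 signals of 9.58 to 10.73 per array, while 7 markers of choroid plexus, a neighbouring tissue, ranged from 6.40 to 10.98. All are bulk tissue values, in which fewer cells of a type and less RNA per cell cannot be told apart.

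The start of a transcript is where the oligopyrimidine tract lies, so 30 bases around the annotated start are shown for 5 of the genes that the strain comparisons turn on. The longest run of C and T bases that touches the 5 bases on either side of the start is in capitals. All are from RefSeq, build GRCm38.p6, each read 5′ to 3′ on the strand of its gene.
Rpl13a: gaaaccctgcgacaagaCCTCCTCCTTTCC
Rps9: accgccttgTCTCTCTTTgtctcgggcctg
Rps15a: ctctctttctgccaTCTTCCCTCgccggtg
Rps3: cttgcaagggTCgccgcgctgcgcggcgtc
Rps3a1: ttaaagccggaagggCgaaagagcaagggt
The windows lie at chr7:45128731-45128760 (Rpl13a, minus strand), chr7:3704026-3704055 (Rps9, plus strand), chr7:118116133-118116162 (Rps15a, minus strand), chr7:99483695-99483724 (Rps3, minus strand) and chr3:86142654-86142683 (Rps3a1, minus strand).

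The run was 14 bases long at Rpl13a, where it goes 1 base past the window, 9 bases at Rps9 and at Rps15a, 2 at Rps3 and 1 at Rps3a1. The 5 genes thus differ in the length of the run, and all 5 had a probe that differed between inbred strains. RefSeq promoters were available for 54 of the 63 ribosomal protein genes by the rule. Of those, 26 (48.1%) had a run of 6 bases or more, against 20.1% of the 27025 genes in the promoter table, and the median run was 5 against 3 bases. Such a run need not begin at the start, so it cannot be equated with the tract. The annotated start itself was C or T in 24 of the 54 (44.4%), against 29.4% of all genes. Over the 250 bases before to 50 after the start and on both strands, CCGGAAG, the core word of ETS family sites, was in 37.0% of the family and 9.12% of all genes. AAGATGG, a word bound by YY1, was in 16.7% against 6.48%. GGGCGG, the GC box, was in 61.1% against 35.9%, and TATAAA, the TATA box, in 9.26% against 14.2%. No one of these 4 words contains another. A word or run found here is a description of these letters and not a bound site.

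**Figure D1:**
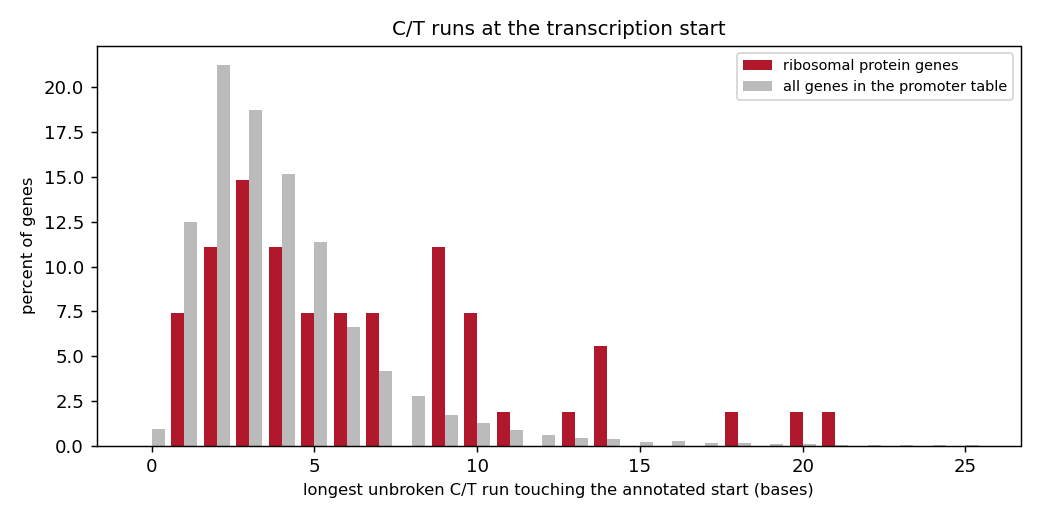
Length in bases of the longest run of C and T near the annotated transcript start (x axis) and the share of genes in percent (y axis), for 54 ribosomal protein genes and for 27025 genes of the RefSeq promoter table. Runs of 6 bases or more made up 48.1% of the family and 20.1% of all genes.

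As a family the ribosomal protein mRNAs were close to equal in the inbred strains. In DBA against B6 hippocampus 61 of the 68 probes lay within 0.5 log2 of no change, and the median change was -0.01 log2, against 0.04 over all 13589 tested probes. In DBA against SJL 61 lay within 0.5, with a median of 0.07 against 0.01 over all probes. In SJL against B6 62 did, with a median of -0.07 against 0.03. The family's median level per array was 12.27 ± 0.12 log2 in inbred DBA, 12.29 ± 0.16 in inbred SJL and 12.33 ± 0.07 in inbred B6 mice (SD, n = 4 each), and these ranges overlap.

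**Figure D2:**
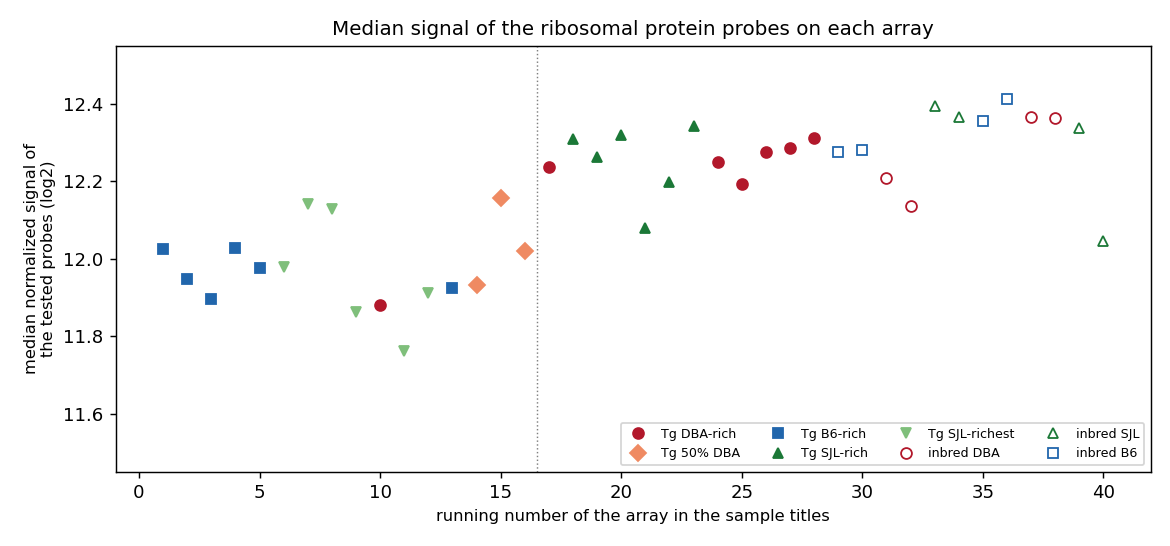
Median log2 signal of the 68 tested ribosomal protein probes on each array (y axis), by the running number of the array (x axis). Each point is 1 mouse (filled for Tg mice, open for inbred mice), and a dotted line parts the earlier from the later arrays. The earlier arrays lie between 11.76 and 12.16 and the later ones between 12.05 and 12.41. In SJL-rich against SJL-richest mice, which lie on different array sets, the median of the probes' own changes was 0.01 log2.

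Single probes stood out from this. In DBA against B6, 0 of the 68 probes were higher and 9 were lower at a limma adjusted p of 0.05, which is 13.2%, against a background of 12.3% of all tested probes called in either direction, 5.93% higher and 6.37% lower. In DBA against SJL 3 were higher and 3 lower (8.82%, background 11.2%, of which 5.84% higher and 5.37% lower). In SJL against B6 0 were higher and 8 lower (11.8%, background 13.5%, of which 6.54% higher and 7.01% lower). These shares of the family are near the background, while in DBA against B6 and in SJL against B6 all calls were in the direction of higher B6. With the agreed arrays the counts were 7 (1 higher, 6 lower), 5 (2 higher, 3 lower) and 3 (all lower). The share of all probes called with the agreed arrays is not given here. The fall in counts therefore cannot be read as a result about the family.

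The size of a few changes set them apart from the family. By the rule for outliers, a change in an inbred pair at least 1 log2 from the family's median, 5 probes of 4 genes qualified, 7.35% of the 68 and, by the same distance, 4.74% of all tested probes. They were a probe each of Rps3 (4.35 log2 from the family's median at most), Rps15a (3.10) and Rps3a1 (1.37), and both probes of Rpl29 (3.66 and 1.83). Just outside came a probe of Rpl7l1 (0.94), Rpl13a (0.93) and a probe of Rps9 (0.85), then Rpl3l (0.67), Rps2 (0.59) and a probe of Rpl21 (0.56). These distances chose the probes and are given as a description.

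Rps3 encodes a small-subunit protein at the site where mRNA enters the ribosome, which also acts in DNA repair. Probe ILMN_2594103 read 8.08, 8.56, 7.99 and 8.13 log2 in the 4 inbred DBA mice. It read 12.40, 12.29, 12.34 and 12.38 in inbred SJL mice, and 12.61, 12.48, 12.56 and 12.53 in inbred B6 mice. The DBA mice were far below both other strains, with no overlap. The DBA level was 20.5-fold lower than B6 (log2 change -4.36, SE 0.10, limma adjusted p = 7.80e-12) and 17.9-fold lower than SJL (adjusted p = 1.59e-11). With the agreed arrays the log2 changes were -4.22 and -4.04 (limma adjusted p = 4.23e-05 and 5.89e-05).

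The second Rps3 probe, ILMN_2637639, showed no such difference. It read between 10.12 and 10.41 log2 in inbred DBA mice, between 9.96 and 10.23 in inbred SJL and between 10.02 and 10.24 in inbred B6 mice, so the 3 strains overlap. Its log2 change was 0.11 in DBA against B6 (limma adjusted p = 0.484) and 0.16 against SJL (adjusted p = 0.284). Over the 40 arrays, which share the 2 array sets, the probes of Rps3 had a Pearson correlation of -0.162 and a Spearman correlation of 0.0746. The tables used here give no probe sequences, so which exon each probe reads is not stated. Ribosomal protein genes have many near-identical processed pseudogenes, and how far any probe in this family also reads such copies was not tested.

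In Tg mice the first Rps3 probe was lower with DBA in the background than without it. The lowest, median and highest log2 values were 10.97, 11.62 and 11.88 in DBA-rich mice, and the lowest was the only DBA-rich mouse on an earlier array. The 3 mice with 50% DBA read 10.92, 11.09 and 11.07. Without DBA, B6-rich mice read 11.91, 12.05 and 12.19, SJL-rich mice 12.25, 12.36 and 12.43, and SJL-richest mice 11.69, 11.94 and 12.20. Within each array set the mice with DBA lay below those without it, with no overlap. On the later arrays the change in DBA-rich against SJL-rich mice was -0.68 log2 (SE 0.06, 1.60-fold lower, limma adjusted p = 3.84e-05). On the earlier arrays it was -0.91 in 50% DBA against SJL-richest mice (SE 0.10, 1.88-fold lower, adjusted p = 5.84e-05).

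The Tg mice with the most DBA were well above inbred DBA mice on this probe, by 3.48 log2 in DBA-rich against inbred DBA mice (SE 0.08, 11.2-fold higher, limma adjusted p = 1.09e-18) and by 3.35 with the agreed arrays. No DBA-rich Tg mouse came as low as any inbred DBA mouse. The difference between the DBA-to-SJL change in Tg mice and that in inbred mice was 3.48 log2 (SE 0.12, limma adjusted p = 1.38e-15), a test chosen after the values were seen, and 3.36 with the agreed arrays. It was called for 2 of the 68 probes, against a background of 0.397% of all tested probes.

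Rps15a, a small-subunit protein, was the other of these 2. Its only probe read 6.98, 7.04, 6.71 and 6.85 log2 in inbred DBA mice. It read 9.92, 9.90, 9.85 and 9.60 in inbred SJL and 9.96, 9.98, 10.07 and 10.01 in inbred B6 mice. DBA mice lay below both strains without overlap, 8.63-fold lower than B6 (log2 change -3.11, SE 0.09, limma adjusted p = 5.09e-11; -3.02 with the agreed arrays) and 7.58-fold lower than SJL (adjusted p = 1.05e-10; -2.71 with the agreed arrays). The longer run of C and T at the Rps15a start, 9 bases against 2 at Rps3, can be seen in the sequences above.

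In Tg mice Rps15a read 8.96, 9.11 and 9.24 log2 (lowest, median, highest) in DBA-rich mice and 8.79, 9.13 and 9.10 in the 3 mice with 50% DBA. It read 9.68, 9.92 and 10.06 in B6-rich, 9.68, 9.81 and 9.99 in SJL-rich, and 9.64, 9.80 and 9.89 in SJL-richest mice. All 10 mice with DBA lay below all 18 without it, on both array sets. The change was -0.69 log2 in DBA-rich against SJL-rich mice (SE 0.06, 1.61-fold lower, limma adjusted p = 2.45e-05) and -0.78 in 50% DBA against SJL-richest mice (SE 0.09, 1.72-fold lower, adjusted p = 0.000136). DBA-rich Tg mice were 4.74-fold higher than inbred DBA mice (log2 change 2.24, SE 0.07, limma adjusted p = 7.28e-16; 2.12 with the agreed arrays). The DBA-to-SJL change was smaller in size in Tg than in inbred mice, by 2.23 log2 (SE 0.10, limma adjusted p = 1.02e-12; 2.02 with the agreed arrays).

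**Figure D3:**
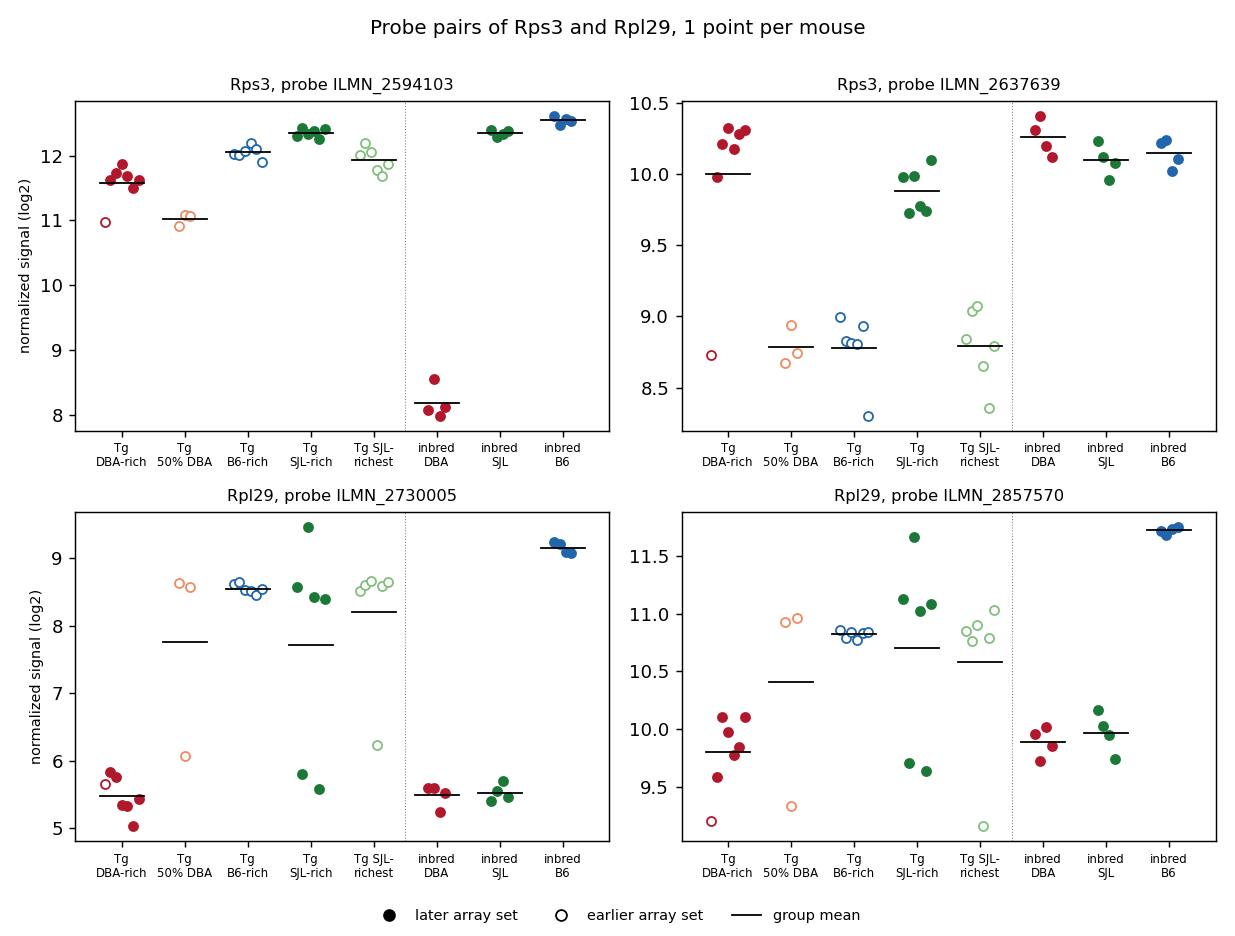
Log2 signal (y axis) of both probes of Rps3 and both probes of Rpl29 in every mouse, by group (x axis), with 1 point per mouse (filled on later arrays, open on earlier ones) and a line at each group mean. Probe ILMN_2594103 of Rps3 is low in inbred DBA mice (7.99 to 8.56) while ILMN_2637639 overlaps among the inbred strains and is lower on the earlier arrays, and both Rpl29 probes are low in the same mice.

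Rpl29, a large-subunit protein known to bind heparin, differed in another pattern: low in both DBA and SJL. Probe ILMN_2730005 read 5.60, 5.60, 5.24 and 5.52 log2 in inbred DBA mice, where it was detected in 2 of 4. It read 5.40, 5.54, 5.69 and 5.45 in inbred SJL mice, detected in none of the 4, and 9.24, 9.21, 9.09 and 9.08 in inbred B6 mice, detected in all. It was at least 10.4-fold lower in DBA than in B6 (limma adjusted p = 1.45e-11) and at least 10.3-fold lower in SJL than in B6 (adjusted p = 1.85e-11), where "at least" marks a bound set by the lowest detected signal. DBA and SJL did not differ by the test (log2 change -0.03, limma adjusted p = 0.883). With the agreed arrays the fitted log2 changes against B6 were -3.49 in DBA and -3.51 in SJL.

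Unlike Rps3, the sister probe of Rpl29 moved the same way. ILMN_2857570 read 9.95, 9.72, 10.02 and 9.85 log2 in inbred DBA, 10.16, 10.02, 9.95 and 9.74 in inbred SJL, and 11.72, 11.69, 11.74 and 11.76 in inbred B6 mice. It was 3.58-fold lower in DBA than in B6 (log2 change -1.84, limma adjusted p = 1.33e-08; -1.91 with the agreed arrays) and 3.38-fold lower in SJL than in B6 (adjusted p = 2.19e-08; -1.90 with the agreed arrays). Over the 40 arrays the 2 probes had a Pearson correlation of 0.902 and a Spearman correlation of 0.765.

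Among Tg mice Rpl29 varied between mice of the same group. On ILMN_2730005 the 6 SJL-rich mice read 8.57, 5.80, 9.47, 8.43, 5.58 and 8.40 log2, and the 6 SJL-richest mice 8.52, 8.60, 8.66, 6.23, 8.59 and 8.65. The mice with 50% DBA read 8.63, 6.08 and 8.57, B6-rich mice between 8.46 and 8.65, and DBA-rich mice 5.03, 5.43 and 5.83 (lowest, median, highest), with detection in 4 of the 7. All DBA-rich mice were low, no B6-rich mouse was, and 2 SJL-rich mice, 1 SJL-richest mouse and 1 mouse with 50% DBA were low beside group mates near the B6-rich level.

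The same 4 mice were low on the sister probe. It read 9.70 and 9.64 log2 in SJL-rich mice 2 and 5 (11.02 to 11.67 in the other 4), 9.16 in SJL-richest mouse 4 (10.77 to 11.03 in the other 5), and 9.33 in mouse 2 of the 50% DBA group (10.93 and 10.96 in its mates). DBA-rich mice read 9.20, 9.84 and 10.11 (lowest, median, highest), against 10.78 to 10.86 in B6-rich mice. In DBA-rich against SJL-rich mice ILMN_2730005 was at least 4.40-fold lower (limma adjusted p = 0.0347), a call lost in 9 of 12 fits that left out 1 array, with adjusted p = 0.324 with runs of 8 arrays as a block. The sister's change was -0.81 log2 and did not pass (adjusted p = 0.148).

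Rps3a1 encodes a small-subunit protein and had the smallest distance of the outliers. It read 6.97, 7.28, 6.74 and 6.66 log2 in inbred DBA, 8.13, 8.40, 8.12 and 8.17 in inbred SJL, and 8.25, 8.24, 8.07 and 8.08 in inbred B6 mice. DBA mice were below both strains without overlap, 2.38-fold lower than B6 (log2 change -1.25, limma adjusted p = 1.00e-05; -0.95 with the agreed arrays) and 2.45-fold lower than SJL (adjusted p = 7.77e-06; -1.03 with the agreed arrays). In DBA-rich Tg mice it read 6.21, 6.79 and 7.78 log2 (lowest, median, highest), and its change against SJL-rich mice, -0.70 log2, did not pass (limma adjusted p = 0.0625). Its level also moved with the array set, with 6.45 to 7.18 log2 in the 50% DBA, B6-rich and SJL-richest mice of the earlier arrays and 7.63 to 7.97 in SJL-rich mice of the later ones.

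**Figure D4:**
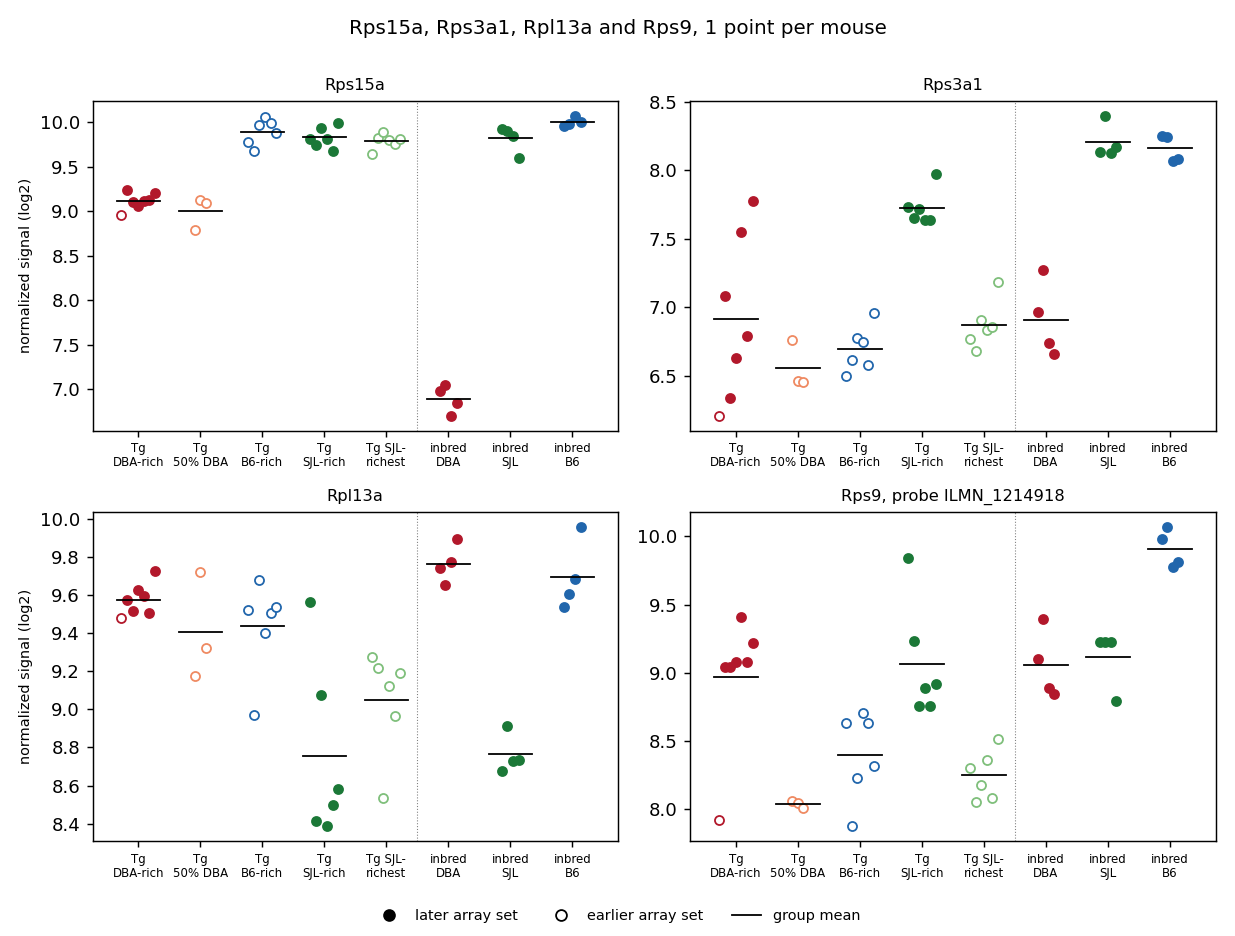
Log2 signal (y axis) in every mouse, by group (x axis), of Rps15a, Rps3a1, Rpl13a and probe ILMN_1214918 of Rps9, with 1 point per mouse (filled on later arrays, open on earlier ones) and a line at each group mean. Inbred DBA mice are lowest for Rps15a (6.71 to 7.04), while for Rpl13a inbred SJL mice (8.68 to 8.91) lie below the other inbred strains.

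Rpl13a, a large-subunit protein that in human cells also joins a complex silencing translation of inflammatory mRNAs, was lower in SJL by its only probe. It read 9.74, 9.66, 9.78 and 9.89 log2 in inbred DBA, 8.68, 8.91, 8.73 and 8.74 in inbred SJL, and 9.54, 9.61, 9.69 and 9.96 in inbred B6 mice. SJL mice lay below both other strains, and DBA and B6 mice overlap. DBA was 2.00-fold higher than SJL (log2 change 1.00, limma adjusted p = 8.27e-06; 0.97 with the agreed arrays, adjusted p = 0.00705). SJL was 1.91-fold lower than B6 (log2 change -0.93, adjusted p = 1.56e-05; -1.09 with the agreed arrays, adjusted p = 0.00417).

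In Tg mice Rpl13a was 1.79-fold higher in DBA-rich than in SJL-rich mice (log2 change 0.84, limma adjusted p = 0.0114). DBA-rich mice read 9.48, 9.57 and 9.73 (lowest, median, highest), against 8.39, 8.54 and 9.56 in SJL-rich mice. The highest of these was SJL-rich mouse 1, which alone overlaps the DBA-rich mice. With runs of 8 arrays as a block the log2 change was 0.79 and did not pass (limma adjusted p = 0.155). Only DBA-rich mice 2 and 3 share a run with the SJL-rich mice, so that fit compares fewer mice.

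Of the other members called in the inbred pairs, Rps9 and Rps2, small-subunit proteins near the mRNA entry, and Rpl21, a large-subunit protein, were lower in both DBA and SJL than in B6. Rps9 probe ILMN_1214918 read 9.10, 9.39, 8.89 and 8.84 log2 in inbred DBA, 9.23, 9.23, 9.23 and 8.79 in inbred SJL, and 9.98, 10.07, 9.78 and 9.81 in inbred B6 mice. It was 1.81-fold lower in DBA (limma adjusted p = 0.000787) and its log2 change in SJL was -0.79 (adjusted p = 0.00142), but neither passed with the agreed arrays (adjusted p = 0.130 and 0.0572). Its sister ILMN_2643092 changed by -0.23 (adjusted p = 0.0602) and -0.08 log2.

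Rps2 read 13.09, 13.06, 13.11 and 13.04 log2 in inbred DBA, 13.37, 13.20, 13.24 and 13.34 in inbred SJL, and 13.60, 13.78, 13.61 and 13.70 in inbred B6 mice, so the 3 strains do not overlap. It was 1.51-fold lower in DBA than in B6 (limma adjusted p = 2.48e-05; 0.0227 with the agreed arrays), and its log2 change in SJL was -0.38 (adjusted p = 0.00118; 0.108 with the agreed arrays). The 2 probes of Rpl21 changed by -0.34 and -0.43 log2 in DBA (limma adjusted p = 0.0211 and 0.0210) and by -0.38 and -0.63 in SJL (adjusted p = 0.0107 and 0.00144). Each of the 2 calls in DBA was lost in 5 of 8 fits that left out 1 array, and those in SJL in 0 of 8. With the agreed arrays no Rpl21 call held: adjusted p was 0.425 and 0.182 in DBA, and 0.162 and 0.112 in SJL.

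In the same inbred comparisons other genes differed too. Of 9 oligodendrocyte markers 8 were lower in DBA than in B6 (median log2 change -0.60), 2 lower in DBA than in SJL and 3 lower in SJL than in B6. Of these calls 2, 0 and 0 held with the agreed arrays. The log2 of their summed signal was 15.04 to 15.44 in inbred DBA, 15.11 to 15.54 in inbred SJL and 15.64 to 15.84 in inbred B6 mice. Of 8 microglia markers 3 were lower in DBA than in B6, 1 higher in DBA than in SJL and 3 lower in SJL than in B6, and of 7 choroid plexus markers 0 were called in any of the 3 pairs. For microglia the agreed arrays gave 1 higher in the first pair, 1 higher in the second and 1 lower in the third. Of 7 measured hippocampal neuron markers Prox1 was lower in DBA and in SJL than in B6 (-0.38 and -0.29 log2; limma adjusted p = 0.153 and 0.157 with the agreed arrays), and Spink8 was lower in SJL than in both other strains. Of 7 measured thalamus markers Ramp3 was higher in DBA and in SJL than in B6 (0.47 and 0.51 log2), Rgs16 lower in DBA than in B6 (-0.47) and Prkcd lower in DBA than in SJL (-0.94). None of these 4 thalamus calls held with the agreed arrays (limma adjusted p = 0.0604 to 0.158). The part of these cell types in the Rps9, Rps2 and Rpl21 differences was not tested.

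Rpl7l1, a paralog of Rpl7, was read by 2 probes. ILMN_2661407, detected on 14 arrays, read 5.25 to 5.68 log2 in inbred DBA (detected in 1 of 4), 4.53 to 4.75 in inbred SJL (0 of 4) and 5.23 to 5.85 in inbred B6 mice (3 of 4). The fitted log2 change was 0.88 in DBA against SJL (limma adjusted p = 0.000652) and -1.01 in SJL against B6 (adjusted p = 0.000184), but no fold is given because both sides lie near the detection limit, and with the agreed arrays adjusted p was 0.0756 and 0.0651. The other probe, ILMN_1249606, detected on all 40 arrays, changed by -0.09 and 0.01 log2. Rpl3l, a paralog of Rpl3 made mainly in muscle, was detected on 23 arrays, 2 of them from inbred DBA mice and 0 from inbred SJL. Its fitted log2 change in DBA against SJL was 0.75 (limma adjusted p = 0.00127; 0.0269 with the agreed arrays). The paralogs Rpl36al and Rps27l, detected on all 40 arrays, were not called in any inbred pair. Rps27l was higher in SJL-rich than in SJL-richest mice, which lie on different array sets (0.37 log2, limma adjusted p = 0.0352). That call was lost in 8 of 12 fits that left out 1 array.

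Of the 57 genes 10 had several tested probes, which allows the comparison made above for Rps3 and Rpl29. In 3 genes, Rps3, Rpl29 and Rpl7l1, the probes' changes in an inbred pair differed by 1 log2 or more. In the other 7 the largest gap was 0.71 log2, at Rps9. The 3 probes of Rpl23 differed by at most 0.08 log2 and the 2 of Rpl31 by at most 0.03. For these genes the probes thus gave nearly the same change. The remaining 47 genes, among them Rps15a, Rps3a1, Rpl13a and Rps2, rest on 1 tested probe, so no second probe could check their differences. Whether the strains differ in sequence under a probe was not tested.

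**Figure D5:**
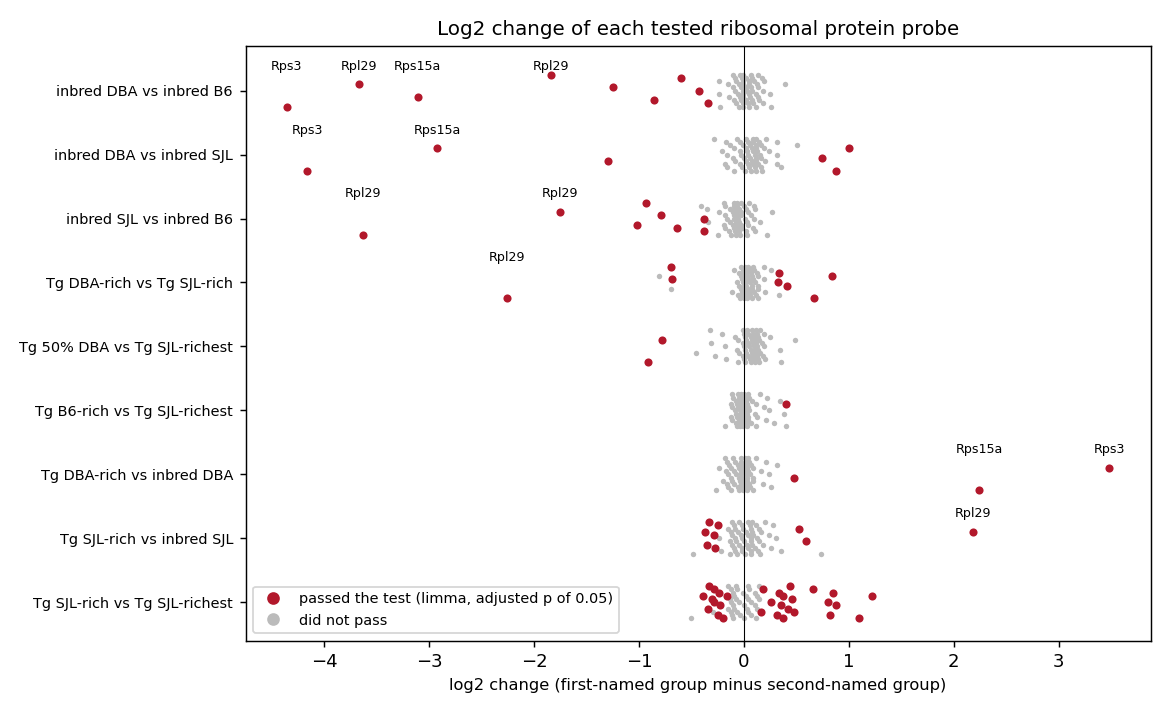
Log2 change of each of the 68 ribosomal protein probes (points) in each comparison of 2 groups, with called probes at a limma adjusted p of 0.05 marked. Most points lie within 0.5 log2 of 0. Farthest below in the inbred pairs are Rps3 (ILMN_2594103) and Rps15a in DBA against B6 and SJL, and both Rpl29 probes in DBA and SJL against B6. Rpl29 probe ILMN_2730005 also lies at -2.26 in Tg DBA-rich against SJL-rich mice. Far above are Rps3 (3.48) and Rps15a (2.24) in DBA-rich against inbred DBA, and ILMN_2730005 (2.18) in SJL-rich against inbred SJL mice.

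DBA-rich and SJL-rich Tg mice differ in their shares of DBA, SJL and B6, and the part of each cannot be told apart. In DBA-rich against SJL-rich mice 5 of the 68 probes were higher and 3 lower (11.8%, background 7.23%, of which 3.19% higher and 4.03% lower), with a median of 0.03 log2 against 0.00 over all probes and 61 probes within 0.5. Lower were Rps3, Rps15a and Rpl29, each by the probes described. Higher were Rpl13a, Rpl7l1 (ILMN_2661407, limma adjusted p = 0.0111, at least 1.33-fold), Rpl35a, Rpl30 and the second Rps3 probe. Rpl35a, whose human gene is mutated in some Diamond-Blackfan anemia, read 11.08 to 11.49 log2 in the 6 later DBA-rich mice and 10.72 to 10.99 in SJL-rich mice, without overlap (log2 change 0.41, limma adjusted p = 0.00442).

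Rpl30, which also binds the selenocysteine insertion element of selenoprotein mRNAs, changed by 0.33 log2 (limma adjusted p = 0.0228) and was not called without DBA-rich mouse 6. The second Rps3 probe changed by 0.33 (limma adjusted p = 0.0284), opposite to the first, and was lost in 7 of 12 fits that left out 1 array. With runs of 8 arrays as a block 2 calls were left, Rps3 by its first probe (log2 change -0.67, limma adjusted p = 0.00218) and Rps15a (-0.66, adjusted p = 0.00188). As stated for Rpl13a, that fit sets the SJL-rich mice against only DBA-rich mice 2 and 3, so a lost call can reflect fewer mice.

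In 50% DBA against SJL-richest mice 0 probes were higher and 2 lower (background 2.55%, of which 1.02% higher and 1.53% lower), the same Rps3 and Rps15a probes, with a median of 0.07 against -0.00 log2 over all probes. In B6-rich against SJL-richest mice, which differ by B6 content, 1 probe was higher and 0 lower (background 1.65%, of which 0.935% higher and 0.714% lower), with a median of -0.00 against -0.01. That probe was ILMN_2688863 of Rpl21, at 6.78 to 7.05 log2 in B6-rich and 6.38 to 6.70 in SJL-richest mice (1.33-fold higher, limma adjusted p = 0.0296). It was lost without B6-rich mouse 3, 4 or 5 or SJL-richest mouse 2, 3, 4 or 5, and the other Rpl21 probe changed by 0.21 log2 (adjusted p = 0.258).

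SJL-rich and SJL-richest mice both carry 0% DBA but differ in their share of SJL (69% and 84%) and lie on different array sets, so background and array set cannot be told apart. Here 19 probes were higher and 11 lower (44.1%, background 40.1%, of which 17.9% higher and 22.2% lower), with a median of 0.01 against -0.08 log2 over all probes. Large-subunit probes were 12 higher and 2 lower, small-subunit probes 7 higher and 8 lower, and Rps19bp1 was lower. Among called probes the largest increases were Rpl35a (1.22 log2, limma adjusted p = 5.98e-06), the second Rps3 probe (1.09), Rpl10, which joins the large subunit late (0.88), Rps3a1 (0.85), Rps9 by ILMN_1214918 (0.82) and Rpl39, a protein of the exit tunnel (0.80).

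Among called probes detected on all arrays of both groups, the largest decreases were Rps19bp1 (-0.39 log2, limma adjusted p = 0.00181), Rps2 (-0.33), Rps15 (-0.31), Rpl23a (-0.29) and Rps13 (-0.28). Some uncalled probes had changes of that size, such as ILMN_2730005 of Rpl29 (-0.50 log2, limma adjusted p = 0.579). Rps19, whose human gene is mutated in Diamond-Blackfan anemia, was called by both probes. ILMN_2862280, detected on all arrays, changed by -0.23 log2 (limma adjusted p = 0.0132) and was called in each of 12 fits that left out 1 array. ILMN_2754355 was detected in 0 of 6 SJL-rich and 2 of 6 SJL-richest mice. Its fitted log2 change was -0.34 (limma adjusted p = 0.0493), with no fold given because both groups hold undetected arrays. That call was lost in 9 of 12 such fits. The probes of Rps9 were called in opposite directions, 0.82 and -0.25 log2. The family's median level was 12.25 ± 0.10 log2 in SJL-rich mice (SD, n = 6) and 11.96 ± 0.15 in SJL-richest mice (SD, n = 6). The median of the probes' own changes between these groups was 0.01 log2 (quartiles -0.12 and 0.20). The gap in median level was thus not a shift of the whole family. In the remaining Tg groups the family's median level was 12.21 ± 0.15 (DBA-rich, SD, n = 7), 12.04 ± 0.11 (50% DBA, SD, n = 3) and 11.97 ± 0.05 (B6-rich, SD, n = 6).

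Tg mice were also set against inbred mice of the main strain. In DBA-rich against inbred DBA mice, both on later arrays, 3 probes were higher and 0 lower (4.41%, background 1.87%, of which 1.11% higher and 0.758% lower), with a median of -0.01 against -0.00 log2. They were Rps3, Rps15a and Rps2. Rps2 was 1.39-fold higher (limma adjusted p = 0.0209) but lost without inbred DBA mouse 1, 2 or 4, and with the agreed arrays (adjusted p = 0.181). These groups differ both in the transgene and in the part of the background that is not DBA, which cannot be told apart.

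In SJL-rich against inbred SJL mice 3 probes were higher and 6 lower (13.2%, background 15.9%, of which 7.35% higher and 8.57% lower), with a median of 0.02 against 0.01 log2. Higher were Rpl29 by ILMN_2730005 (at least 3.79-fold, limma adjusted p = 0.00663), Rpl3l and Rpl7l1 by ILMN_2661407, all 3 undetected in inbred SJL mice. Fewer of all probes were detected on the inbred SJL arrays (43.2% to 43.9%) than on the SJL-rich arrays (47.4% to 50.0%). The part of that gap in these 3 calls was not tested. Lower were Rpl5, which binds the ribosomal 5S RNA (log2 change -0.37, limma adjusted p = 0.00329), Rpl36a (-0.36), Rpl35a (-0.33), Rps21 (-0.28), Rpl27a (-0.27) and Rpl3, near the peptidyl transferase centre (-0.25). Of these 9 only Rpl27a (limma adjusted p = 0.0292) and Rpl3 (adjusted p = 0.0470) passed with the agreed arrays, and adjusted p of the other 7 was 0.0686 (Rpl5) to 0.409 (Rpl35a). With runs of 8 arrays as a block 0 were called, but SJL-rich and inbred SJL mice share no run, so that fit compares them only through other groups. Scaling each array to its 75th percentile in place of quantile normalization gave 16 higher and 2 lower (background 21.1%). The balance of directions in this comparison thus turned with the scaling. Under that scaling Rpl27a and Rpl3 did not pass (log2 change -0.17 and -0.05, limma adjusted p = 0.119 and 0.537). Of the 9 only Rpl5 and Rpl29 by ILMN_2730005 did (limma adjusted p = 0.0246 and 0.00857).

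No member followed Abeta40 within background. With background as a covariate, 0 of 68 probes and 0 of all 13589 passed at a limma adjusted p of 0.05 on either array set. At an unadjusted p under 0.05 there was 1 member on the later arrays, Rpl24 (-0.23 log2 per log10 unit of Abeta40), and 1 on the earlier arrays, Rpl4 (0.25 log2 per log10 unit), against 546 and 622 of all probes. The median slope of the members was -0.07 log2 per log10 unit on later arrays and 0.00 on earlier ones, against -0.01 and 0.00 over all probes.

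Other parts of the translation machinery are given by their counts, each gene by its brightest tested probe, to be read against the background shares of 12.3% in DBA against B6, 11.2% in DBA against SJL and 13.5% in SJL against B6. Fau and Rpsa, small-subunit proteins whose symbols the rule does not take, were not called in any inbred pair. Of 27 measured translation factors 0 were higher and 1 lower in DBA against B6, 0 and 3 in DBA against SJL, and 2 and 0 in SJL against B6 (3.70%, 11.1% and 7.41% called). The agreed arrays gave 1, 1 and 0 calls, and for this and the lists below no background share is given for the agreed arrays. The lower ones included Eif4e, which binds the mRNA cap (-0.77 log2 against B6, limma adjusted p = 0.0102; -0.96 against SJL, adjusted p = 0.00230; with the agreed arrays adjusted p = 0.0264 and 0.0333). In DBA-rich against SJL-rich mice Eif4e was lower too (-0.41, limma adjusted p = 0.0266).

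Of 33 measured ribosome biogenesis genes 2 were higher and 1 lower in DBA against B6, 1 and 1 in DBA against SJL, and 2 and 1 in SJL against B6 (9.09%, 6.06% and 9.09% called). On the agreed arrays the calls numbered 0, 2 and 1. Nle1, an assembly factor of the large subunit, was lower in DBA than in SJL (-0.93 log2, limma adjusted p = 8.15e-06) and higher in SJL than in B6 (1.08, adjusted p = 1.84e-06), and both held with the agreed arrays (adjusted p = 0.00404 and 0.00371). Polr1c, a subunit of RNA polymerases that make ribosomal and transfer RNA, moved the other way (0.81 log2 in DBA against SJL, -0.68 in SJL against B6; with the agreed arrays limma adjusted p = 0.0409 and 0.112). In Tg DBA-rich against SJL-rich mice Nle1 was lower (-0.72, limma adjusted p = 0.000133) and Polr1c higher (0.50, adjusted p = 0.0256).

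Of 11 measured regulators of the TOR pathway, which controls translation of these mRNAs, 1 was lower in DBA than in B6, 0 were called in DBA against SJL and 2 were lower in SJL than in B6 (9.09%, 0% and 18.2% called). Tsc2, an inhibitor of mTOR, was lower in both (-0.68 log2, limma adjusted p = 8.76e-06, and -0.73, adjusted p = 4.66e-06; with the agreed arrays 0.0111 and 0.00930). Of 69 measured genes of the mitochondrial ribosome, a separate particle with its own proteins, 3 were higher and 7 lower in DBA against B6, 3 and 4 in DBA against SJL, and 3 and 8 in SJL against B6 (14.5%, 10.1% and 15.9% called). The agreed arrays gave 6, 3 and 3 calls. Mrpl35 (-2.24 log2, limma adjusted p = 1.33e-08) and Mrps27 (-2.16, adjusted p = 5.82e-09) were lower in DBA than in B6, also with the agreed arrays (adjusted p = 0.000459 and 0.000723), and in DBA-rich than in SJL-rich mice (-1.51 and -1.11 log2).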

How the data were processed

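The non-normalized table deposited by the authors holds signal intensity per probe and array, background-subtracted per its values. Beside it stands, per the file headers, a detection p-value, which approaches 1 for bright probes and so was read as 1 minus p. A second deposited table holds the authors' processed intensity, used as an alternative, with column medians of 21.5 to 32.3. Its scaling and the scanner software are not given in the sources used here. Columns of the first table were matched to samples by the running number in the titles.

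R 4.3.3 with limma 3.58.1 and statmod 1.5.0 was used. All 40 arrays were normalized in 1 neqc step: normexp by detection p, offset 16, quantile normalization, log2. The tests took the 13589 probes with a detection p of 0.01 or less on 4 or more arrays. Models were fitted with lmFit and eBayes, and p-values adjusted by Benjamini-Hochberg over these probes at 0.05: 1 fit of the 12 inbred arrays, 1 of the later Tg arrays, 1 of the earlier arrays without the DBA-rich mouse, 1 of SJL-rich and SJL-richest arrays, and 1 of arrays 17 to 40. The scripts were tested on simulated data. The array count limits precision, and the files name no slide.

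A fold is given as a bound where a probe was undetected on arrays of the dimmer group and detected on all of the brighter group. Each array of the dimmer group then enters at its lowest detected signal, or at the probe's signal where that is higher. Gene names came from the platform annotation, in which 23978 probes have 1 symbol and 1719 none. The members and lists were chosen with earlier results of these data known. Named were outlier probes, members called (all, or the 6 highest and 6 lowest where over 12), genes whose probes differ by 1 log2 or more, paralogs, and up to 3 genes per other list. A planned naming of the brightest and dimmest genes was dropped, since levels of different probes are not comparable. Alternatives covered the source table, the agreed arrays, background correction, scaling, filters, variance model, separate normalization, the methods' t-test, runs of 8 arrays as a block and leaving out each array. The agreed arrays were applied to the other gene lists and to Tg against inbred mice after the data were seen.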

Additional observations from a re-analysis of the deposited data

Results flagged for a closer look

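In each group of 4 to 10 mice, the outlier probes and the family's median were examined for a mouse far from its mates. Of 42 such groups 7 held one, where chance gives about 5%. On Rpl29 probe ILMN_2730005 SJL-richest mouse 4 read 6.23 log2, and on ILMN_2857570 the same mouse read 9.16, both below its 5 mates. On Rps3 probe ILMN_2594103 DBA-rich mouse 1 read 10.97, below the rest, and the family's median on its array was 11.88, also below. It is the only DBA-rich mouse of the earlier array set. On Rps3a1 SJL-rich mouse 6 read 7.97 and inbred SJL mouse 2 read 8.40, both above their mates. The family's median of inbred SJL mouse 4, 12.05, was below the other 3. The cause of these was not tested.

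The change in DBA-rich against SJL-rich Tg mice differed from that in inbred DBA against inbred SJL mice by 3.48 log2 for the Rps3 probe and by 2.23 for Rps15a, in both cases because the Tg change was smaller. The same test did not pass for Rpl29 (-2.22 by ILMN_2730005, limma adjusted p = 0.199) or Rps3a1 (0.60, adjusted p = 0.381).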

How the results depend on the processing

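Of 95 counts of called members under alternatives 85 stayed within 1.5 times the reported count. Where the reported count was 0, as for the Abeta40 slopes, staying so means 0 calls again and says little about stability. All 95 medians of the members moved by no more than the largest SD of the family's median level within a group of the fit. That SD was 0.16 log2 in the inbred fit, larger than the reported medians there. A median could change its sign and still pass this check. With the deposited value table, which places 8 inbred arrays elsewhere, 1 member (higher) was called in DBA against B6 and 0 in DBA against SJL, in SJL against B6 and in DBA-rich against inbred DBA mice. There ILMN_2730005 of Rpl29 read 0.16 log2 in DBA against B6, and Rps3, Rps15a and Rps3a1 read 0.23, 0.26 and 0.28 in DBA against SJL, opposite to the reported changes. In that table each of these probes splits into 2 high and 2 low arrays among those it places in inbred DBA. The agreed arrays gave 3 calls in SJL against B6 and 5 in SJL-rich against inbred SJL mice. With runs of 8 arrays as a block there were 2 in DBA-rich against SJL-rich, 0 in B6-rich against SJL-richest and 0 in SJL-rich against inbred SJL mice, and 75th percentile scaling gave 18 in the last of these.

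Leaving out 1 array gave 5 to 8 calls in DBA-rich against SJL-rich (5 without DBA-rich mouse 6), 0 to 3 in B6-rich against SJL-richest (3 without B6-rich mouse 6) and 6 to 14 in SJL-rich against inbred SJL mice (14 without inbred SJL mouse 4). For the other pairs the ranges were 7 to 9 in DBA against B6, 6 to 7 in DBA against SJL, 8 to 9 in SJL against B6, 2 to 3 in 50% DBA against SJL-richest, 25 to 28 in SJL-rich against SJL-richest and 2 to 4 in DBA-rich against inbred DBA mice. The causes were not tested. No paired analysis was possible because replicate numbers only name arrays. The offset of 16 shrinks log2 changes of probes near the detection limit, such as those of Rpl3l and ILMN_2661407 of Rpl7l1.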

Other observations

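Rps3 and Rps15a both lie on chromosome 7, and both were far lower in inbred DBA mice than in DBA-rich Tg mice. A count over all probes was made after these values were seen, as a description with no test. Of the probes at least 1 log2 lower in inbred DBA than in both inbred SJL and inbred B6 mice there were 123, of which 10 have no annotated chromosome. On chromosome 7, 13 of 16 (81.3%) had no later DBA-rich Tg mouse at or below the inbred DBA level, and on other chromosomes this held for 7 of 97 (7.22%). With the agreed arrays the counts were 14 and 13. The 13 of 16 include the Rps3 and Rps15a probes that prompted the count, so the contrast partly follows from that choice. On chromosome 7 and elsewhere some genes, such as Arrb1, Mrpl48 and Mcm6, enter by more than 1 probe. The median change in DBA-rich against SJL-rich mice was -0.67 log2 on chromosome 7 and -1.17 elsewhere, while the median inbred change was -1.97 and -1.66. Neighbouring probes share a haplotype and are not independent, and the genotypes of these mice were not analysed here.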
